A study of Homo sapiens with 5 samples.

Results

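The epithelial and mesenchymal state genes described here are 10 protein-coding genes chosen by name: the epithelial genes CDH1, EPCAM, KRT8 and KRT18, the mesenchymal filament gene VIM, and the transcription factor genes SNAI1, SNAI2, ZEB1, ZEB2 and TWIST1. They were found by symbol among 58812 gene IDs, with no filter on expression. Earlier results of these data were known when they were chosen. Of the 10 genes, 8 had enough counts to be tested when all mutant libraries were compared with parental, and 9 when the clones were compared separately. RNA sequencing was done on the human prostate cancer line C4-2B, a castration-resistant line from the LNCaP lineage, and on clones of it that carry HOXB13 K13A, a change of lysine 13 to alanine in a homeobox factor of the prostate lineage. The groups are 2 parental libraries, 2 libraries of the mutant clone C4K13A and 1 library of the mutant clone C5K13A, and the cells of each group were kept in the medium named for C4-2B. Each mutant line stands for 1 clone by its name, and the labels do not say whether the replicates are separate cultures, so the p-values rest on a spread between libraries that may be technical.

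Epithelial cells hold to each other through E-cadherin and EpCAM and carry a network of paired keratins, whereas mesenchymal cells carry vimentin and move singly. The SNAIL, ZEB and TWIST factors bind E-box sequences and repress E-cadherin and other epithelial genes during the epithelial-mesenchymal transition (EMT), and ZEB factors and the miR-200 microRNAs repress each other. In prostate cancer, luminal tumour cells keep keratin 8 and keratin 18, and vimentin and SNAIL factors are used as markers of a shift toward the mesenchymal state.

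Totals ran from 43190276 to 57282373 counts per library, with 27337 to 30647 genes detected. HOXB13 itself was at 337 and 449 CPM (counts scaled to a common total, per 1e+06, and corrected with TMM factors) in the parental libraries, 345 and 346 CPM for C4K13A and 353 CPM for C5K13A, a log2 fold change of -0.18 ± 0.17 (SE, adjusted p = 0.739) over both clones. Gene counts cannot show the substitution, so they do not check the genotype. The libraries stood apart in mitochondrial ribosomal RNA, which was at 29.03 CPM in parental library 1 and 65.4 CPM for C4K13A library 1 but at 353 CPM for C4K13A library 2, 658 CPM for C5K13A and 1723 CPM in parental library 2. In bulk RNA, fewer cells of a type and less RNA per cell cannot be told apart.

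The libraries had the levels of an epithelial line. Per kilobase of exon, the order of median levels over the 5 libraries was KRT18 (86.9 CPM per kb), CDH1 (67.5), KRT8 (53.5) and EPCAM (26.6), then SNAI2 (3.73), SNAI1 (3.71) and VIM (3.40), then TWIST1 (0.0393), ZEB1 (0.0228) and ZEB2 (9.44e-04). The ranges of KRT18, CDH1 and KRT8 over the libraries overlapped, though per kilobase KRT18 lay above KRT8 within each library. In CPM, KRT8 lay above KRT18 in each library. The order thus depends on the exon unions used, 6881 bases for KRT8 and 3218 for KRT18. EPCAM lay below KRT18, CDH1 and KRT8 in every library, from 25.1 to 29.2 CPM per kb. The ranges of SNAI2, SNAI1 and VIM overlapped too, as did those of TWIST1 and ZEB1. VIM varied most among the 7 genes above 1 CPM, with a highest level 6.14 times its lowest, followed by SNAI2 (3.88 times) and SNAI1 (2.18 times). KRT18 (1.28 times) and EPCAM (1.17 times) varied least.

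**Figure D1:**
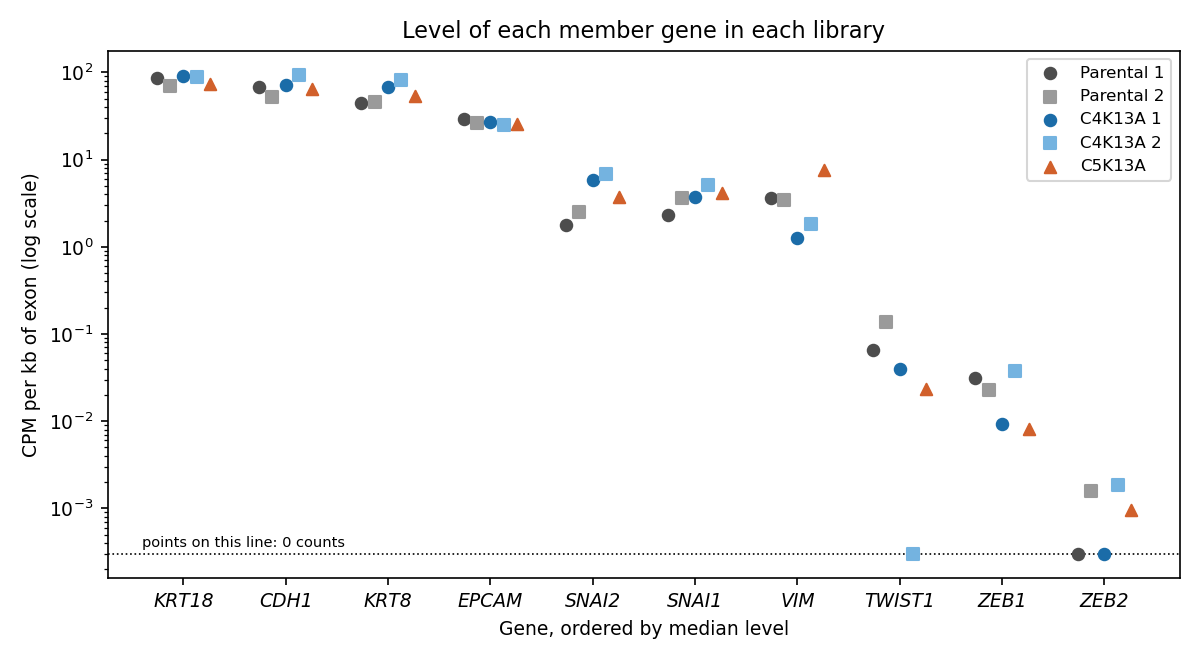
Level of each of the 10 genes in each of the 5 libraries, as TMM-scaled CPM per kilobase of exon on a log axis, with genes ordered by median. The 4 epithelial genes lie above the others in every library, VIM is highest in C5K13A and lowest in C4K13A, and points on the dotted line mark libraries with 0 counts.

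With all 3 mutant libraries set against the 2 parental ones, 0 of the 8 tested genes passed an adjusted p of 0.05 in the edgeR quasi-likelihood test, where 0.203% of all genes did. At an unadjusted p under 0.05 there were 2 of 8, KRT8 and SNAI2, where 11% of all genes passed. DESeq2 called 1 of them (SNAI2), where it called 555 of 19846 genes, and limma-voom called 0. In C4K13A against parental, 1 of 9 genes was called and it was SNAI2, which was higher, beside 0.699% of all genes, while 3 of 9 (KRT8, VIM and SNAI2) had an unadjusted p under 0.05 beside 12.2% of all genes. In C5K13A against parental, 0 of 9 genes were called beside 0.0484% of all genes, with 2 of 9 (VIM and SNAI2) at an unadjusted p under 0.05 (6.45% of all genes) and 0 called by DESeq2 or limma-voom. In C5K13A against C4K13A, 1 of 9 was called and it was VIM, which was higher in C5K13A, beside 0.066% of all genes, while 2 of 9 (VIM and SNAI2) had an unadjusted p under 0.05 beside 6.42%. Both clones are compared with the same parental libraries, so their fold changes are not independent of each other. With its 1 library, C5K13A takes its spread from the other groups.

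**Figure D2:**
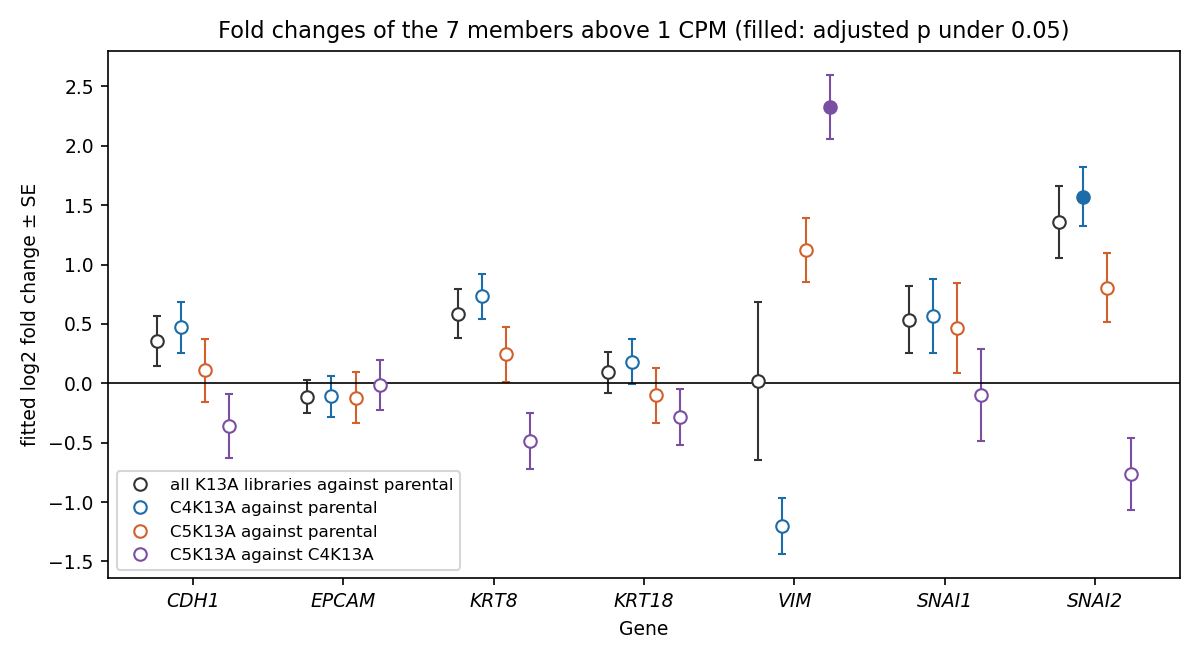
Fitted log2 fold change with its standard error for the 7 genes above 1 CPM in the 4 comparisons, with filled points for an adjusted p under 0.05. The filled points are SNAI2 in C4K13A against parental (1.57) and VIM in C5K13A against C4K13A (2.33).

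CDH1 encodes E-cadherin, the adhesion molecule of epithelial junctions (ENSG00000039068, chromosome 16, 68737225 to 68835548, plus strand, GRCh38 in GENCODE 29, as for all genes here). It was at 417 and 327 CPM in the parental libraries, 448 and 582 CPM for C4K13A and 401 CPM for C5K13A. Both C4K13A libraries lay above both parental ones, while C5K13A lay between the parental values. The log2 fold change was 0.36 ± 0.21 over both clones (adjusted p = 0.571), 0.47 ± 0.22 in C4K13A (adjusted p = 0.437) and 0.11 ± 0.26 in C5K13A (adjusted p = 0.947), none past the threshold.

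EPCAM encodes the epithelial cell adhesion molecule (ENSG00000119888, chromosome 2, 47345158 to 47387601, plus strand). It was at 73.7 and 66.9 CPM in parental, 67.4 and 63.2 CPM for C4K13A and 64.7 CPM for C5K13A. The parental and C4K13A values overlapped and C5K13A lay just below the parental pair. EPCAM had the smallest spread of the 10 genes, and its log2 fold change over both clones was -0.11 ± 0.14 (adjusted p = 0.810).

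KRT8 encodes keratin 8, the type II keratin of simple epithelia (ENSG00000170421, chromosome 12, 52897187 to 52949954, minus strand). It was at 304 and 317 CPM in parental, 462 and 570 CPM for C4K13A and 368 CPM for C5K13A. Each of the 3 mutant libraries lay above both parental ones, with C5K13A the lowest of the 3. The log2 fold change was 0.59 ± 0.21 over both clones (adjusted p = 0.360) and 0.73 ± 0.19 in C4K13A (adjusted p = 0.165), short of the threshold. Of 13 alternatives 3 called the C4K13A value, DESeq2 among them (adjusted p = 0.0228), where it called 745 of 20097 genes. Without parental library 2 the C4K13A value was 0.76, and without C4K13A library 2 it was 0.58. In C5K13A it was 0.25 ± 0.23 (adjusted p = 0.880).

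KRT18 encodes keratin 18, the type I partner that forms filaments with keratin 8 (ENSG00000111057, chromosome 12, 52948871 to 52952901, plus strand). It was at 279 and 227 CPM in parental, 290 and 285 CPM for C4K13A and 236 CPM for C5K13A. The C4K13A libraries lay just above the parental pair and C5K13A lay inside it. Its log2 fold change over both clones was 0.09 ± 0.17 (adjusted p = 0.880). Per kilobase, the ratio of KRT8 to KRT18 was 0.509 and 0.652 for parental, 0.744 and 0.934 for C4K13A and 0.728 for C5K13A. This ratio was above both parental values in each of the 3 mutant libraries, and it was not tested. Its size depends on the exon lengths used.

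The keratin counts carry a limit of their own. KRT8 and KRT18 overlap head to head on opposite strands from 52948871 to 52949954, and the strand setting of the counting is not given in the sources used here, so reads there cannot be told apart. Both also have many processed copies. The 50 annotated KRT8 pseudogenes held 1385 to 2020 counts per library, 7.14% to 11.7% of the KRT8 count, and the 67 KRT18 pseudogenes held 8.84% to 9.31% of the KRT18 count. How reads with several alignments were counted is not given in the sources used here, so the levels of both keratins are uncertain to that extent. The KRT8 pseudogene share was lowest in the C4K13A libraries, at 7.95% and 7.14%, beside 8.89% in C5K13A and 11.2% and 11.7% in parental.

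VIM encodes vimentin, the type III intermediate filament of mesenchymal cells (ENSG00000026025, chromosome 10, 17228259 to 17237593, plus strand). The 250 bases before its RefSeq start site, chr10:17227991-17228240 (GRCh38.p14, plus strand), are shown because VIM was the gene of the 10 that varied most over the libraries among those above 1 CPM.
VIM: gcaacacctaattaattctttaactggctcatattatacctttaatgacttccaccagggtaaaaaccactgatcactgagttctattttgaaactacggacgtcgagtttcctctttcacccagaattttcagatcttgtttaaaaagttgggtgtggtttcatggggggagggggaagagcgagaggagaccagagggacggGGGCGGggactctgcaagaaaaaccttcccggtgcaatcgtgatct
Capitals mark the single match to GGGCGG or its reverse complement CCGCCC, which 45.0% of 35116 RefSeq promoter windows hold. Those windows run from 250 bases before a start to 50 after it. The VIM window had 0 matches to the E-box CANNTG, which reads the same way on both strands and includes CACCTG and CAGGTG. The E-box is in 68.7% of the windows and CACCTG or CAGGTG in 20.6%. A match, or none, only describes these letters. The RefSeq start used here lies 18 bases before the first VIM start in GENCODE 29 and 1037 bases before the start shared by the largest number of its transcripts (2 of 10), and the counts do not show which start was used.

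VIM was higher in the C5K13A library than in those of C4K13A. The parental libraries had 1117 and 891 counts (18.8 and 17.6 CPM), those of C4K13A 323 and 402 (6.46 and 9.35 CPM) and that of C5K13A 1676 (39.6 CPM). Both C4K13A libraries lay below both parental ones and C5K13A lay above all others, an order that 3.68% of tested genes shared. In C5K13A against C4K13A the log2 fold change was 2.33 ± 0.27, a 5.02-fold higher level (adjusted p = 0.0461). This call lay close to the threshold and was not made by limma-voom (adjusted p = 0.113), with a filter at 5 CPM (adjusted p = 0.177) or with upper-quartile factors (adjusted p = 0.0600). Against parental, VIM was at -1.20 ± 0.23 in C4K13A (adjusted p = 0.0737) and at 1.13 ± 0.27 in C5K13A (adjusted p = 0.380), both short of the threshold. Without parental library 2 the C4K13A value was -1.25. Of 13 alternatives 4 called the C4K13A value, among them DESeq2 (adjusted p = 0.00131) and the fit without a low-count filter (adjusted p = 5.85e-05). The C5K13A value was called without that filter (adjusted p = 0.00635).

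The pooled comparison did not show this difference. Over all 3 mutant libraries VIM was at 18.5 ± 18.4 CPM (SD, n = 3), beside 18.2 ± 0.863 CPM (n = 2) in parental, with a log2 fold change of 0.02 ± 0.66 (adjusted p = 0.995). Without C5K13A it was -1.20 (adjusted p = 0.102), so that 1 library set the pooled value. Between libraries on the same side of 200 CPM of mitochondrial ribosomal RNA, the log2 ratio of VIM was -1.54 for C4K13A library 1 to parental library 1 and -0.91 for C4K13A library 2 to parental library 2. On the higher side it was 1.17 for C5K13A to parental library 2 and 2.08 for C5K13A to C4K13A library 2. Both C4K13A libraries lay below both parental ones, so any such pairing gives a negative ratio. C5K13A has no library on the lower side. The part of ribosomal RNA was not tested.

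The ratio of CDH1 to VIM, per kilobase, was 18.5 and 15.6 for parental, 58.0 and 52.0 in C4K13A and 8.45 in C5K13A. CDH1 exceeded VIM in every library, most in C4K13A and least in C5K13A, and the ratio was not tested. VIM had 1 annotated antisense partner with counts, VIM-AS1, which overlaps its first bases and had 34 and 37 counts in parental, 8 and 48 in C4K13A and 71 in C5K13A. They were few beside those of VIM in every library, at most 48 beside 402 in C4K13A library 2. Among the nearest expressed protein-coding genes, the log2 fold change of C5K13A against C4K13A was 0.37 for TRDMT1, -0.14 for RSU1, 0.01 for STAM and -2.31 for CACNB2, none past the threshold.

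**Figure D3:**
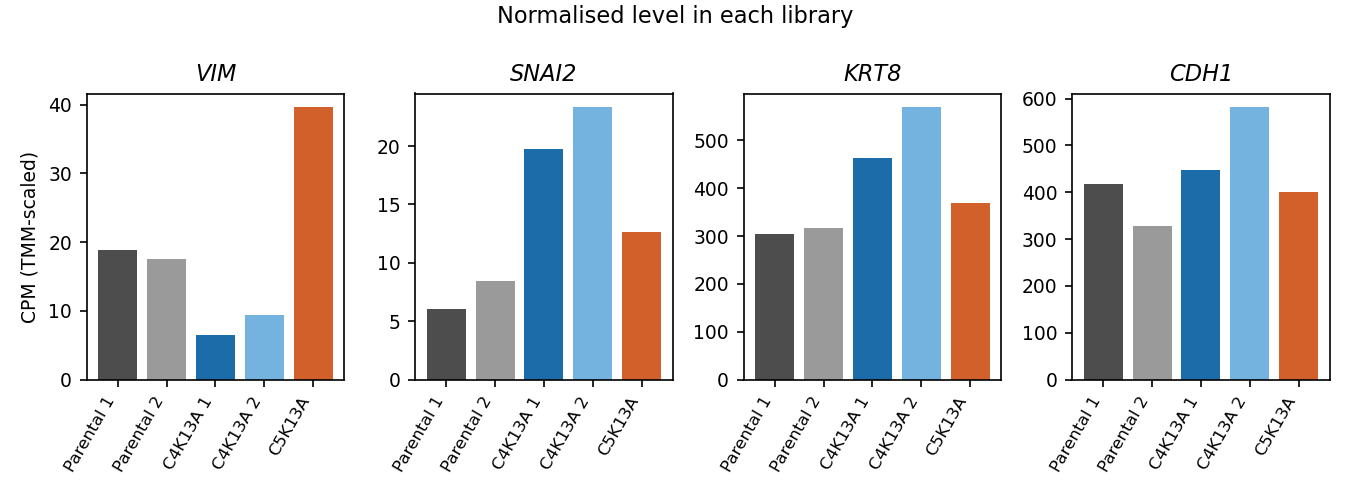
TMM-scaled CPM of VIM, SNAI2, KRT8 and CDH1 in each library, 1 bar per library and each axis from 0. VIM is lowest in the C4K13A libraries (6.46 and 9.35 CPM) and highest in C5K13A (39.6 CPM), while SNAI2 and KRT8 are lowest in the parental libraries.

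Vimentin is also made by stromal and blood cells, so markers of those cells are given beside it. The 12 fibroblast markers summed to 9.19 to 10.03 CPM in parental, 6.88 to 7.95 CPM for C4K13A and 9.13 CPM for C5K13A. LUM, POSTN and TCF21 had 0 counts in all 5 libraries, DCN at most 2 and PDGFRA at most 1. The 12 leukocyte markers summed to 0.941 to 1.00 CPM in parental, 0.721 to 1.46 CPM for C4K13A and 1.04 CPM for C5K13A, with PTPRC at 0 to 2 counts and CD3E and MS4A1 at 0. The 11 endothelial markers summed to 29.3 to 36.5 CPM in parental, 26.4 to 27.8 CPM for C4K13A and 24.2 CPM for C5K13A, nearly all of it from EGFL7, with CDH5 at 0 to 3 counts. The markers with these few counts were part of each list, and COL1A1 and PDGFRB (fibroblast) and EGFL7 (endothelial) were higher. The fibroblast sum, like VIM, was lowest in both C4K13A libraries, and it came mainly from COL1A1 and PDGFRB; its part in the VIM result was not tested. The 12 luminal markers, among them KLK3, summed to 6081 to 8275 CPM in parental and 6007 to 6678 CPM in the mutant libraries. Of these 12 genes, 10 had a negative log2 fold change over both clones (median -0.28) and 11 in C5K13A (median -0.24). Among all genes, 49.4% were positive over both clones and 47.1% in C5K13A. edgeR and limma-voom called 0 of the 12 in any comparison. At an unadjusted p under 0.05 there were 1 over both clones, 2 in C4K13A, 3 in C5K13A and 2 between the clones. The shares of all genes were 11%, 12.2%, 6.45% and 6.42%. DESeq2 called far more genes than edgeR in each clone comparison. It called KLK4 in C4K13A, among 745 of 20097 genes (edgeR 159 of 22743). In C5K13A against parental it called KLK2 and SLC45A3, among 235 of 17011 genes (edgeR 11). In C5K13A against C4K13A it called KLK2 again, among 182 of 17892 genes (edgeR 15).

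SNAI1 encodes SNAIL, a zinc finger repressor of CDH1 (ENSG00000124216, chromosome 20, 49982999 to 49988886, plus strand). It was at 3.95 and 6.11 CPM in parental, 6.26 and 8.62 CPM for C4K13A and 6.95 CPM for C5K13A. Each mutant library lay above both parental ones, though C4K13A library 1 and parental library 2 were nearly level. The log2 fold change over both clones was 0.53 ± 0.28 (adjusted p = 0.526), with 0.57 ± 0.31 in C4K13A and 0.47 ± 0.38 in C5K13A.

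SNAI2 encodes SLUG, a related zinc finger repressor that basal epithelial cells also use (ENSG00000019549, chromosome 8, 48917604 to 48921740, minus strand). It was at 6.02 and 8.47 CPM in parental, 19.7 and 23.3 CPM for C4K13A and 12.6 CPM for C5K13A. The 3 mutant libraries lay above both parental ones, with C5K13A between parental and C4K13A. SNAI2 rose in C4K13A by 1.57 ± 0.25 on the log2 scale, or 2.97-fold (adjusted p = 0.0370). The call was lost without C4K13A library 2 (1.45, adjusted p = 0.0935) and with the filter at 5 CPM (adjusted p = 0.0701). In C5K13A the value was 0.80 ± 0.29 (adjusted p = 0.685), and C5K13A was at -0.77 ± 0.30 against C4K13A (adjusted p = 0.756), so a difference between the clones was not shown.

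Over both clones SNAI2 was at 18.6 ± 5.44 CPM (SD, n = 3) beside 7.24 ± 1.74 CPM (n = 2), a log2 difference of 1.36 ± 0.30 that did not pass (unadjusted p = 0.00195, adjusted p = 0.184). Without C5K13A this is C4K13A alone against parental, and it passed (1.57, adjusted p = 0.0488). Of 16 alternatives 4 called it. These were that fit, a fit with a block for replicate number that also left out C5K13A, DESeq2, and the fit without a low-count filter. The log2 ratio of C4K13A to parental was 1.71 between the libraries low in mitochondrial ribosomal RNA and 1.46 between those high in it, beside 0.49 between the parental libraries themselves. Both C4K13A libraries lay above both parental ones, so any such pairing gives a positive ratio, and the part of ribosomal RNA was not tested. SNAI2 rose in the clone in which VIM was lowest and the CDH1 level was highest.

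Counted by position rather than by test, KRT8, SNAI1 and SNAI2 (3 of 8 genes) had all 3 mutant libraries above both parental ones, where 28.5% of all tested genes did not overlap in one direction or the other and 13.8% were higher. For C4K13A alone, 7 of 9 genes did not overlap with parental, beside 44.1% of all genes (21.1% higher). CDH1, KRT8, KRT18, SNAI1 and SNAI2 lay above, and VIM and TWIST1 lay below. TWIST1 passed the filter only in the 3-group fit, where 1 library is enough, and its highest count, 14, was in parental library 2. Its place below parental thus carries no weight. With 2 libraries a side such separation is frequent, and it is no test.

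The other EMT factors were near the limit of detection. ZEB1 encodes a zinc finger and homeobox repressor of CDH1 and of the miR-200 genes (ENSG00000148516, chromosome 10, 31318495 to 31529814, plus strand). It had 16 and 10 counts in parental, 4 and 14 in C4K13A and 3 in C5K13A, with overlapping groups and a log2 fold change over both clones of -0.56 ± 0.86 (adjusted p = 0.849). Pooled counts were 21 in the mutant libraries and 26 in parental, a depth-corrected ratio of 0.658 with an exact 95% interval from 0.352 to 1.22. This interval and those that follow cover counting error only, and without molecular identifiers reads are not independent molecules. ZEB1-AS1, which starts across from ZEB1 on the other strand, had 450 and 273 counts in parental, 198 and 178 in C4K13A and 206 in C5K13A, far more than ZEB1 itself. Its log2 fold change was -0.58 ± 0.26 (adjusted p = 0.461), and because the strand setting is not given, part of the ZEB1 count could belong to it.

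ZEB2 encodes the paralogue of ZEB1 (ENSG00000169554, chromosome 2, 144364364 to 144524583, minus strand). It had 0 and 2 counts in parental, 0 and 2 in C4K13A and 1 in C5K13A, too few to pass either filter. The pooled ratio was 1.22 with an interval from 0.140 to 14.6, so no difference was detectable at this depth. TWIST1 encodes a basic helix-loop-helix factor of mesoderm (ENSG00000122691, chromosome 7, 19020991 to 19117672, minus strand). It had 8 and 14 counts in parental, 4 and 0 in C4K13A and 2 in C5K13A, and each mutant library lay below both parental ones. The pooled ratio of 6 to 22 counts was 0.222 with an interval from 0.0737 to 0.565, which leaves out the spread between libraries. TWIST1 passed the filter only in the 3-group fit, where it was at -2.23 ± 1.48 in C4K13A (adjusted p = 0.602) and -2.05 ± 1.92 in C5K13A (adjusted p = 0.879).

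The microRNAs that repress ZEB1 and ZEB2 are printed from RefSeq (GRCh38.p14) because they pair with the ZEB transcripts through the seed, bases 2 to 8, set in capitals.
hsa-miR-200b-3p: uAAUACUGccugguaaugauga
hsa-miR-200c-3p: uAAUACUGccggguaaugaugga
hsa-miR-429: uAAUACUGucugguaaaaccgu
hsa-miR-200a-3p: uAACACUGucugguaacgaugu
hsa-miR-141-3p: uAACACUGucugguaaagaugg
They fall into 2 seed groups, AAUACUG for miR-200b, miR-200c and miR-429 and AACACUG for miR-200a and miR-141. Mature microRNAs were not measured here, only RNA assigned to their genes. MIR200CHG, the host transcript of miR-200c and miR-141, had 287 and 135 counts in parental, 87 and 118 in C4K13A and 110 in C5K13A. As CPM these were 4.82 and 2.66, 1.74 and 2.74, and 2.60, so the groups overlapped, and the difference of -0.67 ± 0.36 (log2) did not pass (adjusted p = 0.539). MIR200B, MIR200C and MIR429 stayed under 0.4 CPM in every library. Of the 7 miR-200 and miR-205 genes and hosts measured, 4 were tested and 0 were called by edgeR, 0 had an unadjusted p under 0.05 and 0 were called by DESeq2 or limma-voom.

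The wider pathway was followed through lists of genes that work beside these 10. Over all genes tested, 49.4% had a positive log2 fold change over both clones and the median was -0.0047. In the lists that follow, edgeR and limma-voom called 0 genes over both clones. The counts at an unadjusted p under 0.05 and by DESeq2 are therefore given instead. Beside them, 11% of all genes reached that p and DESeq2 called 555 of 19846. Over the separate comparisons of the clones, edgeR called only CDH26 in these lists besides SNAI2 and VIM themselves. The DESeq2 counts that follow are those over both clones. In the separate comparisons DESeq2 called further list genes, KRT8 and ITGA5 among them in C4K13A, where it called 745 of 20097 genes. In C5K13A they included KLF4 and THBS1 (235 of 17011 genes called), and between the clones TJP1 and BAMBI (182 of 17892).

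Of the 37 epithelial junction and polarity genes, 36 were tested, 17 had a positive fold change and the median was -0.07. An unadjusted p under 0.05 was reached by 7 of them, and DESeq2 called 3: DSG2, DSC2 and CDH26. DSG2, a desmosomal cadherin, was at 294 and 414 CPM in parental, 681 and 1167 CPM for C4K13A and 839 CPM for C5K13A (1.34 ± 0.27, adjusted p = 0.148). DSC2, its desmocollin partner, was at 65.1 and 65.9 CPM in parental and 89.4 to 146 CPM in the mutant libraries (0.94 ± 0.23, adjusted p = 0.216). CDH26, an alpha4 integrin-binding cadherin, fell in C4K13A: it was at 14.2 and 5.87 CPM in parental, 1.34 and 1.53 CPM for C4K13A and 3.48 CPM for C5K13A, with a log2 fold change of -2.80 ± 0.44 (adjusted p = 0.0386). This CDH26 call was made in 10 of 13 alternatives and lost with limma-voom (adjusted p = 0.102), with the filter at 5 CPM (adjusted p = 0.102) and without C5K13A (-2.80, adjusted p = 0.0527). The tight junction gene CLDN12 was at -0.74 ± 0.20 (adjusted p = 0.250). DSG2 and DSC2 thus lay above 0 and CDH26 and CLDN12 below it.

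Among the 20 epithelial transcription and splicing factors, 8 had a positive fold change and the median was -0.21. There were 6 at an unadjusted p under 0.05, and DESeq2 called ELF3, KLF5 and ESRP1. ELF3, an epithelial ETS factor, was at 23.5 and 17.04 CPM in parental, 11.1 and 9.42 CPM for C4K13A and 10.5 CPM for C5K13A (-0.98 ± 0.20, adjusted p = 0.160). KLF5, a Krüppel-like factor of epithelia, was at -1.05 ± 0.24 (adjusted p = 0.187). ESRP1, the regulator of epithelial splicing, was at 140 and 114 CPM in parental, 74.7 and 77.3 CPM for C4K13A and 89.0 CPM for C5K13A (-0.67 ± 0.16, adjusted p = 0.215). For each of these 3 genes, named for their small p, every mutant library lay below both parental ones. Among all tested genes, 28.5% did not overlap with parental in one direction or the other. KLF4 was at -0.997 ± 0.40 (adjusted p = 0.427).

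Of 9 simple epithelial keratins, 5 were tested, 4 had a positive fold change, 2 were at an unadjusted p under 0.05 and DESeq2 called 0 over both clones. Their median was 0.59, which is that of KRT8. KRT19, which lacks the usual tail, was at 5.53 and 9.46 CPM in parental, 8.11 and 23.7 CPM for C4K13A and 18.0 CPM for C5K13A (1.15 ± 0.44, adjusted p = 0.406). KRT80, a type II keratin, was highest in C5K13A, with 1.53 and 3.07 CPM in parental, 1.50 and 4.46 CPM for C4K13A and 21.4 CPM for C5K13A (1.99 ± 0.97 over both clones, adjusted p = 0.502). Its log2 fold change in C5K13A was 3.22 against parental and 2.85 against C4K13A, values that rest on 1 C5K13A library. DESeq2 called KRT80 in both of these comparisons, while edgeR and limma-voom called it in neither.

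Of 20 basal epithelial keratins and markers, 7 were tested, 5 had a positive fold change and the median was 0.18, with 2 at an unadjusted p under 0.05. DESeq2 called both of these, SNAI2 and ITGB4. ITGB4, the hemidesmosomal integrin of basal cells, was at 9.29 and 3.25 CPM in parental, 0.939 and 0.767 CPM for C4K13A and 2.51 CPM for C5K13A (-2.17 ± 0.59, adjusted p = 0.252). The 20 genes summed to 190 to 290.2 CPM in parental, 174 to 238 CPM in the C4K13A libraries and 319 CPM in that of C5K13A. KRT5 and TP63, chosen after their values were seen, had at most 0.0930 CPM in any library. LAMA3, a laminin chain and the highest gene of the list, was at -0.08 ± 0.33 (adjusted p = 0.954).

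**Figure D4:**
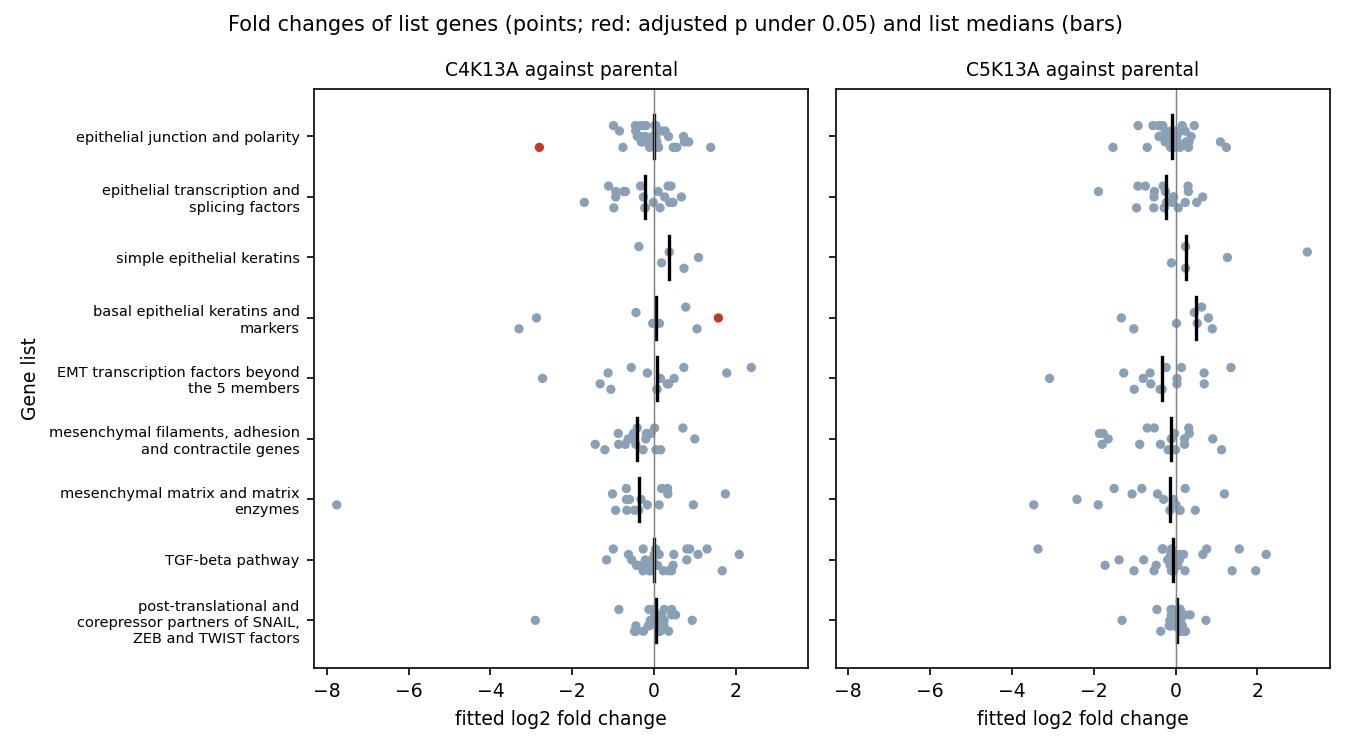
Fitted log2 fold changes of the tested genes of 9 lists in C4K13A and in C5K13A against parental, 1 point per gene, with a bar at each list's median and red for an adjusted p under 0.05. The red points are CDH26 (-2.80) and SNAI2 (1.57) in C4K13A, and the point farthest left is TNC, which has 0 counts in both C4K13A libraries, so its place depends on the prior count of the fit.

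Of the 20 EMT factors beyond the 5 described, 14 were tested, 6 had a positive fold change and the median was -0.04, with 4 at an unadjusted p under 0.05. DESeq2 called 1, FOXC1, a forkhead factor at 2.66 and 1.97 CPM in parental, 5.38 and 10.5 CPM for C4K13A and 3.76 CPM for C5K13A (1.50 ± 0.46, adjusted p = 0.295). FOXQ1, another forkhead factor, was at 2.11 ± 0.77 (adjusted p = 0.375), resting mainly on C4K13A library 2 with 6.02 CPM beside 0.504 to 1.73 CPM elsewhere. SNAI3, the third SNAIL gene, was at -1.04 ± 0.42 (adjusted p = 0.424), opposite in sign to SNAI1 and SNAI2. ETV5, an ETS factor, was at -1.79 ± 0.76 (adjusted p = 0.452), and TCF3, the E protein at the highest level of the list, was at 0.23 ± 0.17 (adjusted p = 0.656).

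Of 29 mesenchymal filament, adhesion and contractile genes, 18 were tested, 5 had a positive fold change and the median was -0.18. There were 2 at an unadjusted p under 0.05, and DESeq2 called 0. ITGA5, the fibronectin receptor chain, was at 12.1 and 23.0 CPM in parental, 6.16 and 6.77 CPM for C4K13A and 13.5 CPM for C5K13A (-0.99 ± 0.39, adjusted p = 0.418). Like VIM it was lowest in C4K13A, but its C5K13A value lay between the parental ones. ENG, a TGF-beta coreceptor, was at 0.97 ± 0.40 (adjusted p = 0.439), and the smooth muscle actin gene ACTA2 at -1.11 ± 0.51 (adjusted p = 0.475). ITGB1, the highest gene of the list, was at -0.06 ± 0.15 (adjusted p = 0.919). CDH2, the gene of N-cadherin and chosen after its values were seen, had 0 counts in all 5 libraries, which allows a level of up to 0.0504 to 0.0709 CPM by library (3 counts).

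Of 31 mesenchymal matrix genes and enzymes, 17 were tested, 5 had a positive fold change and the median was -0.26, with 2 at an unadjusted p under 0.05. DESeq2 called 1, TNC, the tenascin C gene, at 0.622 and 0.473 CPM in parental, 0 in both C4K13A libraries and 0.0473 CPM for C5K13A. COL3A1, a fibrillar collagen gene, was at 1.58 ± 0.55 (adjusted p = 0.358). COL6A2 was at -0.80 ± 0.35 (adjusted p = 0.458) and the thrombospondin gene THBS1 at -1.06 ± 0.47 (adjusted p = 0.464). FN1, the fibronectin gene and the highest of the list, was at 1787 and 2359 CPM in parental, 761 and 2439 CPM for C4K13A and 2897 CPM for C5K13A. Its C4K13A libraries thus differed more from each other than the groups did (-0.03 ± 0.47, adjusted p = 0.991).

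The 31 genes of the TGF-beta pathway, whose signal induces SNAIL and ZEB factors, included 29 tested, of which 12 had a positive fold change. Their median was -0.03, with 3 at an unadjusted p under 0.05 and 0 called by DESeq2. The inhibitory SMADs lay above 0: SMAD6 was at 0.95 ± 0.28 (adjusted p = 0.285) and SMAD7 at 0.79 ± 0.25 (adjusted p = 0.316). The ligand gene TGFB3 was at 1.29 and 1.30 CPM in parental and 0.496 to 0.600 CPM in the mutant libraries (-1.23 ± 0.38, adjusted p = 0.296). The receptor gene ACVR1B was at -0.31 ± 0.15 (adjusted p = 0.509), and PMEPA1, an inhibitor that TGF-beta induces and the highest gene of the list, was at -0.38 ± 0.21 (adjusted p = 0.551).

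Of 28 modifiers and corepressors that work with SNAIL, ZEB and TWIST proteins, all 28 were tested, 15 had a positive fold change and the median was 0.01. There were 5 at an unadjusted p under 0.05 and 0 called by DESeq2. LATS2, a Hippo kinase, was at 45.6 and 36.9 CPM in parental, 23.5 and 22.0 CPM for C4K13A and 30.1 CPM for C5K13A (-0.71 ± 0.19, adjusted p = 0.239). The p21-activated kinase gene PAK1 was at -2.17 ± 0.75 (adjusted p = 0.349), at under 1 CPM in every library. The LIM protein gene AJUBA was at -0.42 ± 0.17 (adjusted p = 0.429) and the CoREST gene RCOR1 at 0.37 ± 0.15 (adjusted p = 0.434). CSNK1A1, the highest gene of the list, was at 0.16 ± 0.15 (adjusted p = 0.733).

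The genes most like VIM, SNAI1 and SNAI2 over the 5 libraries were sought among 13835 protein-coding genes, by the root-mean-square difference of mean-centred log2 CPM. For VIM they were SYNGR3 (0.115), TRIM47 (0.136), PLIN4 (0.183), ABHD14B (0.307) and CYP2E1 (0.312). SYNGR3, a synaptogyrin gene, was at 2.22 and 2.05 CPM in parental, 0.420 and 0.674 CPM for C4K13A and 4.21 CPM for C5K13A. For SNAI2 they were MAK (0.0535), INAVA (0.118), PLEKHG6 (0.140), DSG1 (0.141) and NEDD9 (0.143). MAK, a male germ cell kinase gene, was at 4.34 and 6.62 CPM in parental, 14.1 and 16.9 CPM for C4K13A and 8.91 CPM for C5K13A. For SNAI1 they were PLPPR2 (0.0334), CKMT1B (0.0397), S100A11 (0.0458), GRHL2 (0.0560) and SLC15A2 (0.0610). GRHL2, a grainyhead factor that sustains epithelial genes, was at 207 and 298 CPM in parental, 302 and 395 CPM for C4K13A and 361 CPM for C5K13A. Likeness over 5 libraries, which differ in depth and in mitochondrial ribosomal RNA, is only a description.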

How the data were processed

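Gene-level RNA-seq was analysed in 5 libraries of total RNA. Per the labels' protocols, column-purified RNA was freed of DNA with DNase I and of ribosomal RNA by RiboErase, and an Illumina HiSeq read the libraries. The submitters' processing notes name bcl2fastq, STAR 2.5, Subread and featureCounts 1.4.6-p5. What the authors deposited is 1 raw count per gene and library, for 58812 Ensembl IDs. Of the build, annotation release, strand setting and multiple alignments, each is not given in the sources used here. Symbols, positions and exon lengths came from GENCODE 29 on GRCh38, which held 55297 of the IDs and may differ from the authors' annotation.

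Counts were tested in R 4.3.3 by the quasi-likelihood test of edgeR 4.0.16 (glmQLFit, glmQLFTest, after filterByExpr and TMM scaling) and Benjamini-Hochberg adjustment over all genes at 0.05. All K13A libraries against parental used 2 groups (20649 genes), and the clone comparisons used 1 fit of 3 groups (22743 genes). Standard errors are the size of the fold change over the root of F. CPM per kb divides by the union of exons. Alternatives were DESeq2 1.42.0, limma 3.58.1 voom, other factors, filters and gene sets, a covariate for mitochondrial ribosomal RNA and summed C4K13A libraries. A block by replicate number, fitted without C5K13A, and each library left out in turn were alternatives too. The tests were also run on simulated counts with independent libraries, which cannot show whether the real replicates are technical. No 2 libraries were close enough to be duplicates (chi-square per gene 51.2 or more).

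The genes and lists were chosen with earlier results of these data known. Named from each list are genes called in any comparison, up to 4 with the smallest unadjusted p over both clones, and the gene with the highest CPM. A gene that this rule names is not reported here. Likeness was sought for genes of at least 1 CPM on average whose log2 CPM spans at least 1, with the 5 nearest genes named. RefSeq promoter windows were found for 4 of the 10 genes (KRT8, VIM, ZEB1, ZEB2).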

Additional observations from a re-analysis of the deposited data

Results flagged for a closer look

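VIM was higher in C5K13A than in C4K13A by a test of the difference itself, with the spread of the lone C5K13A library taken from the other groups. Its log2 fold change in C5K13A against C4K13A was 2.33 (adjusted p = 0.0461, edgeR's quasi-likelihood test), with C5K13A above both parental libraries and both C4K13A libraries below them. The range over 11 alternatives was 2.08 to 2.62, with adjusted p from 1.45e-13 to 0.177, and 8 of the 11 made the call. C5K13A is 1 library, so a difference between clones and one between libraries cannot be told apart.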

How the results depend on the processing

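For SNAI2 in C4K13A, 11 of 13 alternatives kept the call, for VIM between the clones 8 of 11, and for CDH26 in C4K13A 10 of 13. VIM in C4K13A, not called, was called in 4 of 13 alternatives, the replicate block among them (adjusted p = 0.00932). Over both clones, the 0 genes called became 1 with DESeq2 and 1 without a low-count filter, and stayed 0 without either C4K13A library. Without C5K13A, which leaves C4K13A alone against parental, 1 gene was called. The fit with a block for replicate number also left out C5K13A, and it called 2. For C4K13A, the 1 gene called became 3 with DESeq2, 3 without a filter, 2 with the replicate block and 0 with the filter at 5 CPM, and 0 to 3 when a library was left out (0 without C4K13A library 2, 3 without parental library 2). For C5K13A, the 0 genes became 1 without a filter. Between the clones, the 1 gene became 0 with limma-voom, the filter at 5 CPM or upper-quartile factors. VIM over both clones reversed to -0.039 in the 3-group fit, -0.41 with the ribosomal RNA covariate and -0.47 with limma-voom. It was -0.033 with the filter at 5 CPM and -0.032 with upper-quartile factors, and ran from -1.20 to 0.42 when a library was left out. The replicate block, which compares C4K13A alone with parental, gave -1.22. Signs also turned when a library was left out for KRT18 over both clones (-0.049 to 0.25), ZEB1 in C4K13A (-1.52 to 0.48, with 0.02 without parental library 1), CDH1 (-0.059 to 0.29) and KRT18 (-0.24 to 0.056) in C5K13A, and EPCAM (-0.060 to 0.034), SNAI1 (-0.31 to 0.15) and TWIST1 (-0.73 to 4.29) between the clones. The cause was not tested. Replicate numbers 1 and 2 are shared by parental and C4K13A, and same-numbered deviations correlated at r = 0.246 across genes, but 2 pairs with no label of a shared batch share only a number. Over all genes, the 42 calls for both clones ran from 0 without parental library 1 (1194 at an unadjusted p under 0.05) to 1167 without a filter. The 159 calls for C4K13A ran from 32 with the filter at 5 CPM to 1667 without parental library 2. The 11 for C5K13A ran from 0 with limma-voom (1133 at an unadjusted p under 0.05) and the filter at 5 CPM (704) to 668 without parental library 2. The 15 between the clones ran from 0 with the same 2 settings (1104 and 833) to 423 without a filter. Depth limits ZEB1, ZEB2 and TWIST1, with at most 16, 2 and 14 counts in any library.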
